A study of Rattus norvegicus with 9 samples.

Results

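The outer medulla of the rat kidney transcribed many stretches of the genome that carry no gene name in the table of expression values. These loci were taken by a fixed rule: no gene name of any kind, and 1 FPKM or more on average in the 9 libraries (FPKM are fragments scaled to transcript length and to the fragments mapped in a library). The rule kept 1331 of 4095 loci without a name (32.5%), in a table of 30315 loci, and these 1331 made up 9.28% of the 14338 loci at or above the same mean level. The loci were therefore chosen by their mean level, and every statement on how high they are is a description with no test. The columns of the table that could hold a nearest reference gene or a class were empty in every row (0 rows filled), so a locus is known here only by its position on build rn5, its width, its number of transcription start sites and its levels.

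The 9 rats, of the strain MCW SS (a salt-sensitive line), fell into 3 groups of 3 and gave 1 library each. Rats labelled 0.4% salt stayed on a 0.4% NaCl diet, had the same surgery as the other groups and were sampled at the point where treatment would have started, so they received no GapmeR. Rats labelled HS_SCR were given a scrambled GapmeR by the intra-renal route (4 mg/kg) and then spent 7 days on food with 4% NaCl. Those labelled HS_DT were given GapmeRs against Dnmt3a and Tet3, at 2 mg/kg each, and ate the same food for 7 days. Diet, days on the diet and exposure to any GapmeR therefore changed together between the first group and the other 2, and cannot be told apart there. Neither sex nor age is given in the sources used.

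As background, an assembler such as Cufflinks joins overlapping aligned reads into transcripts and gathers transcripts that share bases into a locus, whether or not an annotated gene lies there. A locus stays without a name where the annotation holds no gene with matching exons. Such loci are known to include long noncoding RNAs, extended ends of neighbouring genes, retained introns, transcripts of repeats and enhancers, and short structured RNAs such as small nuclear and small nucleolar RNAs. The outer medulla is best known for its thick ascending limbs, which reabsorb sodium chloride, and it also holds the last segment of the proximal tubule and collecting ducts. GapmeRs are antisense oligonucleotides that direct the cleavage of a target RNA. Dnmt3a is a de novo DNA methyltransferase, and Tet3 oxidises methylated cytosine.

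Some features of the libraries bear on every result below. Mitochondrial loci took between 25.4% and 31.9% of the summed FPKM in 8 libraries and 20.6% in HS_SCR replicate 3. The targets of the GapmeRs did not check the HS_DT label. Dnmt3a was at 5.75 to 10.3 FPKM in HS_SCR and 8.72 to 11 in HS_DT, and Tet3 at 5.04 to 8.20 and 7.62 to 8.54, so neither was lower in the libraries labelled HS_DT (adjusted p = 0.303 and 0.271, limma). Defining markers of the thick ascending limb were present in all 9 libraries (8 of 8 markers found, none listed at 0), with a summed level of 1085 to 4109 FPKM. In bulk tissue, fewer cells of a type and less RNA per cell cannot be told apart.

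The loci without a name were lower and narrower than loci with a name. Their median of the mean level was 2.73 FPKM, with quartiles at 1.49 and 7.77, against a median of 12.1 FPKM over the 13007 named loci that passed the same filter. Many lay just over the filter, with 719 loci at 1 to under 3 FPKM (54.0%), 345 at 3 to under 10, 228 at 10 to under 100 and 39 at 100 FPKM or more. Their median interval was 3230 bases, with quartiles at 764.5 and 20088.5, against 30717 bases for named loci. A single start site was listed for 1097 of them (82.4%), against 34.5% of the named loci, and the largest number was 10. By width, 81 spanned under 200 bases, 300 spanned 200 to under 1000, 498 spanned 1000 to under 10000 and 452 spanned 10000 or more.

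**Figure D1:**
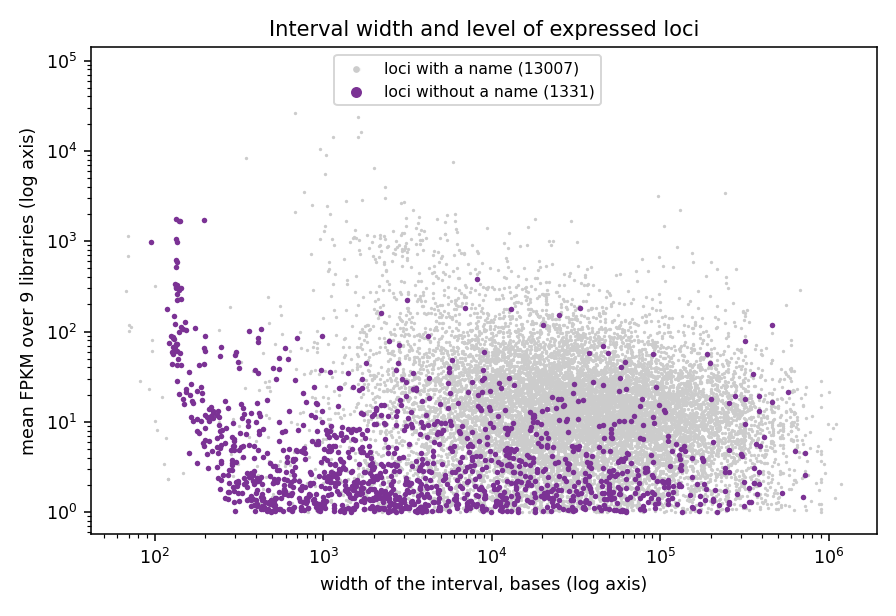
Each point is a locus at or above 1 FPKM on average, with the width of its interval in bases on the x axis (log) and its mean FPKM over 9 libraries on the y axis (log). Purple points are the 1331 loci without a name and grey points the 13007 with one. The purple points form a steep column of high levels under 200 bases and a broad low cloud above it, most of it under 10 FPKM.

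Near the filter the choice of loci was a matter of small differences. Just inside it were chr18:7070293-7073015, chr8:54269325-54287313 and chr6:143942654-144077953, with means of 1.00 FPKM. Just outside were chr9:19199815-19200334 at a mean of 0.999 FPKM, and chr2:282635297-282638384 and chr5:80770412-80771028 at 0.995 FPKM. The first of these 3 was listed between 0.283 FPKM in 0.4% salt replicate 1 and 2.64 FPKM in HS_SCR replicate 3. A mean near 1 thus came with levels on both sides of it.

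Most of these loci were found in every rat. Of the 1331, 1253 were above 0 in all 9 libraries, and 795 were at 1 FPKM or more in all 9. A group mean of at least 1 FPKM was reached in all 3 groups by 1092 loci and in a single group by 57, of which 15 reached it in 0.4% salt only, 32 in HS_SCR only and 10 in HS_DT only. Those 57 entered the set through the group where they were high, so a difference between groups was built into their choice. The number of the 1331 at or above 1 FPKM was 1181 to 1217 in the 0.4% salt libraries, 1089 to 1132 in HS_SCR and 1193 to 1211 in HS_DT. The HS_SCR libraries did not overlap the other groups in that number. Named loci at or above 1 FPKM showed the same order in number, with 12771 to 12829, 12519 to 12675 and 12755 to 12845.

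Each nuclear chromosome in the table held some of them. The count ran from 36 on chromosome 16 to 158 on chromosome 1, and chromosome X held 38. As a share of the loci tested on a chromosome, they ranged from 5.89% on chromosome 10 to 13.6% on chromosome 15. None of the 18 loci tested on the mitochondrial chromosome lacked a name.

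**Figure D2:**
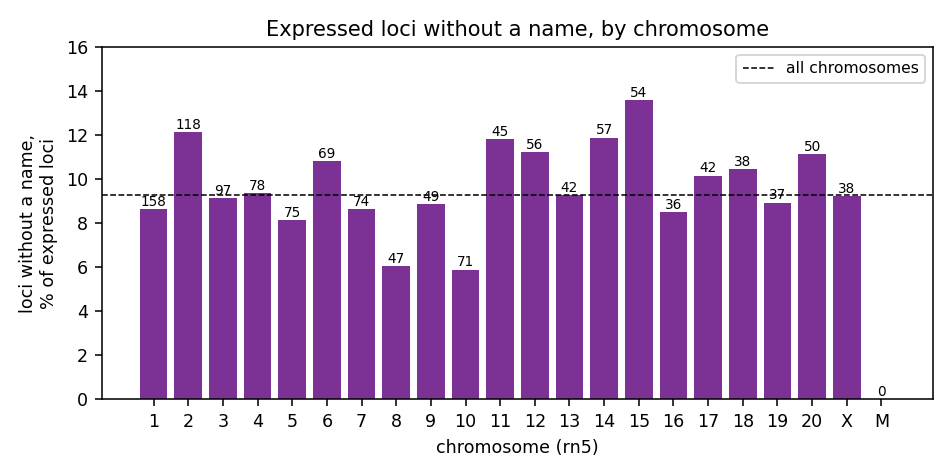
Bars give, for each chromosome of rn5, loci without a name as a percentage of all loci at 1 FPKM or more, with the number of loci above each bar. The dashed line is the share over all chromosomes, 9.28%. Chromosome 15 stands highest at 13.6% and chromosome 10 lowest among the nuclear chromosomes at 5.89%.

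Relative to named loci, 241 lay in the interval of a named locus, 493 lay within 5000 bases of one, 403 lay 5000 to 50000 bases away and 194 lay farther. The table gives overlapping loci a common interval, and all 241 carry exactly the interval of a named locus. A further 96 share an interval with other unnamed loci only. For these 337 the listed width is that of the shared interval and not their own span. The use of strand in counting is not stated, so reads of a named gene and of an unnamed locus in its interval may be split between them in ways the table does not show. The widest loci are of this kind. A pair of loci of 722331 bases at chr8:124098093-124820423, with means of 4.55 and 2.55 FPKM, share the interval of Rbms3, an RNA-binding protein gene. The next widest, at chr15:16953386-17659537 with 706152 bases and a mean of 1.47 FPKM, has the interval of PTPRG, a receptor tyrosine phosphatase gene.

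Loci without a name were mostly solitary. Of the 1331, 992 had no other such locus within 10000 bases, and 339 formed 146 runs of 2 or more. The longest run held 8 loci and lay in the Hoxd cluster on chromosome 3, a row of homeobox transcription factor genes that pattern the body axis. It ran from chr3:68068679-68068955 to chr3:68089070-68095203. Of the 8, 5 shared the interval chr3:68072513-68083680 with Hoxd10, which had a mean of 25.1 FPKM, and the last shared the interval of Hoxd8, at a mean of 178 FPKM. The 8 loci themselves were low, with means from 1.05 to 2.09 FPKM. One of the 5 with the Hoxd10 interval was listed at 1.77, 1.49 and 2.15 FPKM in 0.4% salt, at 1.07, 0.776 and 0.738 in HS_SCR and at 1.33, 1.15 and 1.24 in HS_DT. Its HS_SCR levels lay below all others, and it fell by 0.59 ± 0.14 (log2, SE) from 0.4% salt to HS_SCR (adjusted p = 0.0277, limma). That call was lost in 5 of the 9 fits that leave out a library, namely each of the 3 libraries of 0.4% salt, HS_SCR replicate 2 and HS_DT replicate 2, and also under quantile normalization, with a factor for the rat number series and in a fit of the 2 groups alone (adjusted p up to 0.0883). The rat numbers fall into a lower and a higher series, and all 0.4% salt rats are in the higher one. Hoxd10 itself changed by -0.12 ± 0.15 (adjusted p = 0.619), and Hoxd8 by 0.02 ± 0.12 (adjusted p = 0.937).

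The highest loci without a name were very short. Of the 39 at 100 FPKM or more, 28 spanned under 200 bases. Loci without a name were 81 of the 101 tested loci under 200 bases (80.2%), with a median level of 62.9 FPKM. Their widths bunched: 46 spanned 120 to under 150 bases, each with a single start site and none in the interval of a named locus, and their means ran from 15.6 to 1760.2 FPKM with a median of 93.9 FPKM. Between 60.2% and 71.6% of the summed FPKM of all 1331 loci came from those under 200 bases, in every library. The whole set took 3.24% to 3.84% of the summed FPKM of a library.

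A short interval makes each fragment count for much in FPKM. The 7 loci of 135 bases showed this directly: in each library their values were whole multiples of a single step, within 0.001 of a step. The step was 7.53 to 12.3 FPKM, and the multiples ran from 0 to 163. If a step is 1 fragment, then 1 fragment in a single library gives a mean of 0.836 to 1.37 FPKM over the 9 libraries, close to the filter. Among all loci of the table with a single start site and an interval of their own, the smallest value above 0 was 7.16 FPKM for widths of 120 to under 140 bases, 3.98 for 140 to under 160, 1.55 for 180 to under 200, 0.289 for 200 to under 300 and 0.0205 for 1000 to under 2000. The level of a short locus and that of a long one are thus measured with different grain. The smallest value also fell by a larger factor than the width grew, for a reason that was not tested. Levels of short and long loci may therefore not be comparable. That limits the rank of the short loci and their share of the summed FPKM. The median coefficient of variation within groups was 37.6% for loci under 200 bases, 34.9% at 200 to under 1000, 22% at 1000 to under 10000 and 24.6% at 10000 or more.

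The highest locus of all, chr11:85457106-85457238, has 133 bases and lies 4738 bases from Tra2b, a splicing regulator gene, the nearest named locus that passed the filter. Its levels were 1636, 1447 and 1202 FPKM in 0.4% salt, 2134, 2700.4 and 2069 FPKM in HS_SCR and 1763, 1517 and 1374 FPKM in HS_DT. All 3 HS_SCR rats lay above the other 6. It rose by 0.69 ± 0.16 (log2, SE) from 0.4% salt to HS_SCR (adjusted p = 0.0301, limma), whereas Tra2b changed by -0.10 ± 0.12 (adjusted p = 0.583). The call on the locus was lost without any one of the 0.4% salt libraries, HS_SCR replicate 2 or HS_DT replicate 2 (adjusted p up to 0.0967), and also under quantile normalization, with no filter, with a factor for the rat number series and in a fit of the 2 groups alone (adjusted p from 0.0136 to 0.454 over all alternatives).

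Next came a pair 126 bases apart on chromosome 5, between 110728 and 110996 bases from Slc2a1, a glucose transporter gene and the nearest named locus that passed the filter. The first, chr5:141852921-141853117 (197 bases), was at 1538, 1656 and 1544 FPKM in 0.4% salt, 1623, 1943 and 1947 in HS_SCR rats and 1396, 1664 and 1952 in HS_DT rats. The second, chr5:141853244-141853385 (142 bases), was at 1453, 1536 and 1269 FPKM in 0.4% salt, 2389, 2661 and 1470.1 in HS_SCR rats and 1596, 1448 and 1342 in HS_DT rats. The groups overlapped at both loci. HS_SCR minus 0.4% salt was 0.21 ± 0.14 (adjusted p = 0.324) at the first and 0.57 ± 0.21 (adjusted p = 0.102) at the second, so neither passed the test.

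Further along the chromosome, chr5:150196766-150196904 (139 bases), was at 1916, 1572 and 1779 FPKM in 0.4% salt, 1727, 1856 and 1543 in HS_SCR rats and 1991, 1417 and 1169 in HS_DT rats. The 3 groups overlapped throughout. On chromosome 18, chr18:83647530-83647663 (134 bases) ranged from 776 to 1474 FPKM over the 9 libraries. The narrowest locus of the set, chr18:48144908-48145002 (95 bases, mean 992 FPKM), was far less even, at 1045, 677 and 242 FPKM in 0.4% salt, 1506, 1455 and 325 in HS_SCR rats and 1365, 279.6 and 2032 in HS_DT rats. Each of its 3 groups held a high and a low rat. The other narrow ones, chr5:141138104-141138222 (119 bases) at 90.0 to 359.8 FPKM and chr14:36690957-36691078 (122 bases) at 15.3 to 175 FPKM, spread likewise.

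At chr3:67717570-67717704 (135 bases) the HS_SCR rats stood apart. Levels were 738, 728 and 766 FPKM in 0.4% salt, 1062, 1762 and 1366 in HS_SCR rats and 845, 768 and 751 in HS_DT rats. In steps of the library, these are 78, 75 and 83, then 116, 163 and 111, then 76, 102 and 72. No HS_SCR rat overlapped another group on the FPKM scale. The locus rose by 0.88 ± 0.17 (adjusted p = 0.0152, limma) from 0.4% salt to HS_SCR, and HS_DT minus HS_SCR was -0.80 ± 0.17, which did not pass (adjusted p = 0.0702). The rise was not called without 0.4% salt replicate 1 or replicate 2 (adjusted p up to 0.0677), nor under quantile normalization, with no filter on low values or in a fit of the 2 groups alone (adjusted p up to 0.155 over the alternatives).

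The remaining loci of the top 12 passed no test. They were chr17:50684575-50684707 (133 bases, mean 617 FPKM), chr17:16343327-16343461 (135 bases, 584 FPKM), chr14:1003322-1003455 (134 bases, 515 FPKM), chr10:40019565-40027693 (8129 bases, 381 FPKM) and chr20:4666289-4666420 (132 bases, 335 FPKM). At chr14:1003322-1003455 every HS_SCR rat (471, 589.5 and 802 FPKM) was above every 0.4% salt rat (418, 398 and 358 FPKM), but the change of 0.63 ± 0.24 was not called (adjusted p = 0.112). Only the locus on chromosome 10 among the 12 was wider than 200 bases, and it lies 349 bases from Tnip1, an inhibitor of NF-kB signalling. Its change of -0.91 ± 0.52 from 0.4% salt to HS_SCR was not called (adjusted p = 0.259), whereas Tnip1 rose by 0.25 ± 0.07 (adjusted p = 0.0454).

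**Figure D3:**
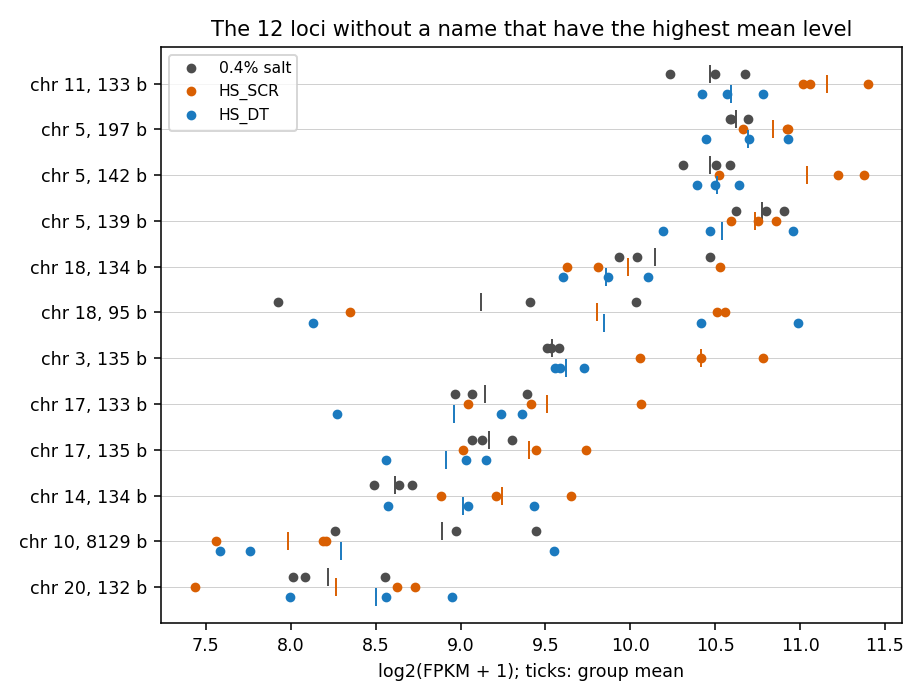
The 12 loci without a name that have the highest mean level, with log2(FPKM + 1) on the x axis and 1 row per locus, named by chromosome and width. Points are libraries (grey 0.4% salt, orange HS_SCR, blue HS_DT, n = 3 each) and vertical ticks are group means. The orange points lie clear of the others at the locus of 133 bases on chromosome 11 and that of 135 bases on chromosome 3, and the locus of 95 bases on chromosome 18 is spread widely in every group.

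Between 0.4% salt and HS_SCR, 55 loci without a name rose and 70 fell (limma, adjusted p under 0.05 over all 14338 loci). Those that rose are 4.13% of the 1331, against 8.2% of all loci tested. Those that fell are 5.26%, against 4.88%. A smaller share of the loci without a name rose than of all loci, and a like share fell; that difference in shares was not tested. The rises ran from 0.39 to 3.96 on the log2 scale with a median of 0.83, and 11 exceeded 2-fold. The falls ran from -0.30 to -3.31 with a median of -0.85, and 28 exceeded 2-fold. Here and below, a change is the difference of group means of log2(FPKM + 1), which understates the change of low loci.

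Ranges that do not overlap were counted in the same libraries, and all 55 rises and 70 falls called are among them. These counts are therefore no separate support. FPKM ranges of the groups did not overlap, with HS_SCR higher, at 152 loci (11.4%, against 19.1% of all loci tested), and with HS_SCR lower at 180 (13.5%, against 14.5%). The median change over the 1331 was -0.04, against 0.02 over all loci tested. It was -0.07 after median-ratio rescaling and turned to 0.06 after quantile normalization, so no direction can be given for the set as a whole. Quantile normalization also turned the split of the calls, from 55 up and 70 down (44.0% up) to 71 up and 39 down (64.5% up). Median-ratio rescaling gave 48 up and 73 down (39.7% up). Over all loci these rescalings left the median change between -0.02 and 0.03.

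These counts depended on single rats. They were 15 up and 10 down without 0.4% salt replicate 1, 12 and 6 without replicate 2, 36 and 28 without replicate 3, 27 and 38 without HS_SCR replicate 2, 39 and 34 without HS_DT replicate 2, and 155 and 212 without HS_SCR replicate 3. No call changed sign in any alternative that was run.

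**Figure D4:**
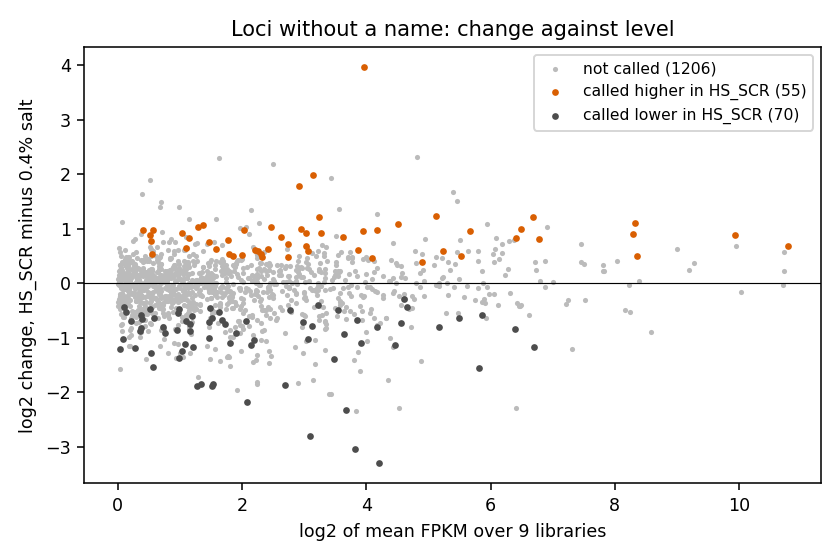
Each point is one of the 1331 loci without a name, with the log2 of its mean FPKM over 9 libraries on the x axis and its log2 change from 0.4% salt to HS_SCR on the y axis. Orange points are the 55 called higher in HS_SCR, dark points the 70 called lower and grey points the 1206 not called. Dark points gather at the low end of the level axis and orange points extend to its top end.

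Loci that rose and loci that fell differed in shape. The 55 that rose had a median width of 1635 bases and a median level of 7.72 FPKM, and the 70 that fell had a median width of 11556 bases and 2.98 FPKM. By width, 8 rose and 1 fell under 200 bases, 13 rose and 8 fell at 200 to under 1000 bases, 25 rose and 24 fell at 1000 to under 10000, and 9 rose and 37 fell at 10000 bases or more. Median-ratio rescaling kept this split, with 7 up and 1 down under 200 bases and 8 up and 38 down at 10000 bases or more. After quantile normalization the same classes had 3 up and 2 down, 16 and 5, 33 and 12, and 19 and 20. Neither the excess of rises under 200 bases nor that of falls among wide loci was kept under that scaling. The widest class still had the smallest share of rises there. The median change under 200 bases also turned, from 0.15 to -0.01. Among named loci there were 0 up and 0 down under 200 bases (20 loci), 16 up and 0 down at 200 to under 1000, 418 up and 39 down at 1000 to under 10000, and 686 up and 590 down at 10000 or more, so a larger share of rises among narrower loci is not particular to those without a name. For the unnamed loci of that width whose interval is their own, 4 rose and 23 fell. The difference between named and unnamed loci in this split was not tested.

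The rises and falls named next were chosen among calls with no overlap between 0.4% salt and HS_SCR, so that separation was built in. Among the rises, the largest was at chr13:114691947-114692095 (149 bases), 48419 bases from Ppp2r5a, which encodes a regulatory subunit of protein phosphatase 2A. It was at 10.1 FPKM in 0.4% salt replicate 1 and listed at 0 in the other 2, at 34.7, 42.0 and 26.4 FPKM in HS_SCR and at 17.6, 3.98 and 5.58 FPKM in HS_DT. HS_SCR stood clear of both groups. The rise of 3.96 ± 0.90 (adjusted p = 0.0266, limma) rests on the added 1 FPKM where the level is listed at 0. The 3.98 FPKM of HS_DT replicate 2 is also the smallest value above 0 named before for loci of 140 to under 160 bases.

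A locus on the X chromosome had the second largest rise. It lies at chrX:23600215-23610458 (10244 bases), 3019 bases from Alas2, the gene of the first enzyme of haem synthesis in red cell precursors. Levels were 3.36, 3.37 and 2.02 FPKM in 0.4% salt, 23.1, 17.7 and 6.76 FPKM in HS_SCR and 6.71, 7.76 and 8.91 FPKM in HS_DT. It rose by 1.98 ± 0.37 (adjusted p = 0.0152), and Alas2 rose by 2.61 ± 0.52 (adjusted p = 0.0178). The summed level of the erythroid markers (Alas2 among them) was 756, 769 and 496 FPKM in 0.4% salt, 8718, 5712 and 1339 FPKM in HS_SCR rats and 1909, 2517 and 1833 FPKM in HS_DT rats. The order of the rats was the same for the locus and the markers in 0.4% salt and HS_SCR, but not in HS_DT, where the rat with the highest level of the locus had the lowest sum. All 4 erythroid markers found rose, none was listed at 0, and the part of red cell precursors in the rise of the locus was not tested.

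At chr1:2943184-2943367 (184 bases) both groups on high salt were above 0.4% salt. Levels were 3.51, 1.85 and 1.76 FPKM in 0.4% salt, 8.8, 11 and 11.4 FPKM in HS_SCR and 5.96, 15.9 and 7.69 FPKM in HS_DT. It rose by 1.78 ± 0.32 in HS_SCR (adjusted p = 0.0138). HS_DT minus 0.4% salt was 1.62 ± 0.32, which did not pass (adjusted p = 0.299). Its nearest named locus that passed the filter, an Ensembl gene without a symbol 32794 bases away, moved the other way in HS_SCR (-0.97 ± 0.17, adjusted p = 0.0134).

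Several rises lay beside named genes. At 52 bases from H6pd, an enzyme gene of the endoplasmic reticulum, chr5:170636085-170637493 (1409 bases) was at 20.5, 21.9 and 24.9 FPKM in 0.4% salt, 39.2, 67.2 and 59.7 in HS_SCR rats and 25.4, 26.1 and 29.3 in HS_DT rats. It rose by 1.23 ± 0.18 (adjusted p = 0.00766), and H6pd itself changed by 0.15 ± 0.40 (adjusted p = 0.829). The 3 groups of that locus did not overlap. At 535 bases from Cib1, which encodes a calcium- and integrin-binding protein, chr1:142968442-142968806 (365 bases) was at 59.4, 62.3 and 75.3 FPKM in 0.4% salt, 113, 165 and 195 in HS_SCR rats and 90.5, 85.5 and 76.1 in HS_DT rats. It rose by 1.22 ± 0.19 (adjusted p = 0.00899), and Cib1 changed by 0.29 ± 0.11 (adjusted p = 0.118). HS_SCR rats were again all above the other 6.

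The locus chr19:67153170-67156507 (3338 bases), 20255 bases from the DNA repair gene Fanca, was at 4.75, 5.42 and 5.81 FPKM in 0.4% salt, 15.8, 12.3 and 13 in HS_SCR rats and 7.46, 9.32 and 10.6 in HS_DT rats. Its 3 groups were in a clear order without overlap. It rose by 1.21 ± 0.14 (adjusted p = 0.00566). The locus chr6:109236418-109239824 (3407 bases), 2598 bases from Rab15, a small GTPase gene, was at 14.2, 16 and 15.5 FPKM in 0.4% salt, 24.9, 33.7 and 44.9 in HS_SCR rats and 18.3, 18.7 and 19.3 in HS_DT rats. It rose by 1.09 ± 0.18 (adjusted p = 0.0102), and Rab15 changed by 0.64 ± 0.21 (adjusted p = 0.0760). The last of the 8 rises, chr3:134933702-134933836 (135 bases, 23443 bases from Plcb1) was at 303, 146 and 221 FPKM in 0.4% salt, 385, 616 and 418 in HS_SCR rats and 245, 203 and 355 in HS_DT rats. HS_SCR was above the others in every rat, with a rise of 1.11 ± 0.31 (adjusted p = 0.0480).

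The falls had another look: low levels in 2 of the HS_SCR rats and a higher level in HS_SCR replicate 2. The largest, chr2:75933567-75937840 (4274 bases, 29639 bases from the oncostatin M receptor gene Osmr), was at 26.0, 57.1 and 16.5 FPKM in 0.4% salt, 0.837, 14.3 and 0 in HS_SCR rats and 13.5, 14.8 and 22.8 in HS_DT rats. It fell by 3.31 ± 0.90 (log2, SE, adjusted p = 0.0463). On chromosome 16, chr16:32492655-32501155 (8501 bases) was at 16.7, 45.7 and 16.5 FPKM in 0.4% salt, 0.819, 11.5 and 0.121 in HS_SCR rats and 7.12, 11.5 and 17.4 in HS_DT rats. It fell by 3.05 ± 0.83 (adjusted p = 0.0464). The nearest named locus that passed the filter, Aadat, an enzyme gene of lysine and kynurenine breakdown 41364 bases away, changed by -1.72 ± 0.58, which did not pass (adjusted p = 0.0811).

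Also on chromosome 16, chr16:31120729-31132672 (11944 bases) was at 13.4, 19.5 and 15.1 FPKM in 0.4% salt, 1.68, 4.2 and 0 in HS_SCR rats and 5.69, 7.59 and 9.18 in HS_DT rats. Its 3 groups did not overlap, and it fell by 2.81 ± 0.50 (adjusted p = 0.0134). The locus chr5:130743965-130760754 (16790 bases) was at 16.3, 33.3 and 14.8 FPKM in 0.4% salt, 2.57, 6.96 and 1.54 in HS_SCR rats and 9.21, 8.37 and 21.4 in HS_DT rats, and it fell by 2.34 ± 0.50 (adjusted p = 0.0220). Its neighbour Hspb11, 11458 bases away, changed by 0.03 ± 0.10 (adjusted p = 0.867). Both loci were highest in 0.4% salt replicate 2.

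With 5 start sites, chr3:50697794-50705914 (8121 bases) was among the more complex loci. It was at 5.92, 9.70 and 5.08 FPKM in 0.4% salt, 0.260, 2.52 and 0.0824 in HS_SCR rats and 2.31, 3.47 and 8.76 in HS_DT rats, and it fell by 2.18 ± 0.52 (adjusted p = 0.0309). At chr15:8606697-8610964 (4268 bases), in a run of 3 loci near the potassium channel gene Kcnk16, levels were 4.59, 7.67 and 2.93 FPKM in 0.4% salt, 0.0483, 1.84 and 0.269 in HS_SCR rats and 2.46, 2.80 and 3.24 in HS_DT rats. That locus fell by 1.89 ± 0.39 (adjusted p = 0.0200). In each of these, HS_SCR replicate 2 was the highest of its group. That no HS_SCR rat reached the lowest 0.4% salt rat followed from the choice of loci.

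The remaining falls of the 8 were of the same kind. At chr14:22788832-22789259 (428 bases, 2665 bases from the locus named Ly6c), levels were 3.87, 4.8 and 3.55 FPKM in 0.4% salt, 1.56 in HS_SCR replicate 2 and listed at 0 in the other 2, and 2.67, 3.47 and 1.88 in HS_DT, and it fell by 1.88 ± 0.35 (adjusted p = 0.0150). The widest, chr8:83813743-83892827 (79085 bases, 3 start sites), was at 7.63, 16.1 and 7.43 FPKM in 0.4% salt, 1.27, 3.66 and 1.37 in HS_SCR rats and 3.58, 4.46 and 12.3 in HS_DT rats. It fell by 1.88 ± 0.47 (adjusted p = 0.0351).

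**Figure D5:**
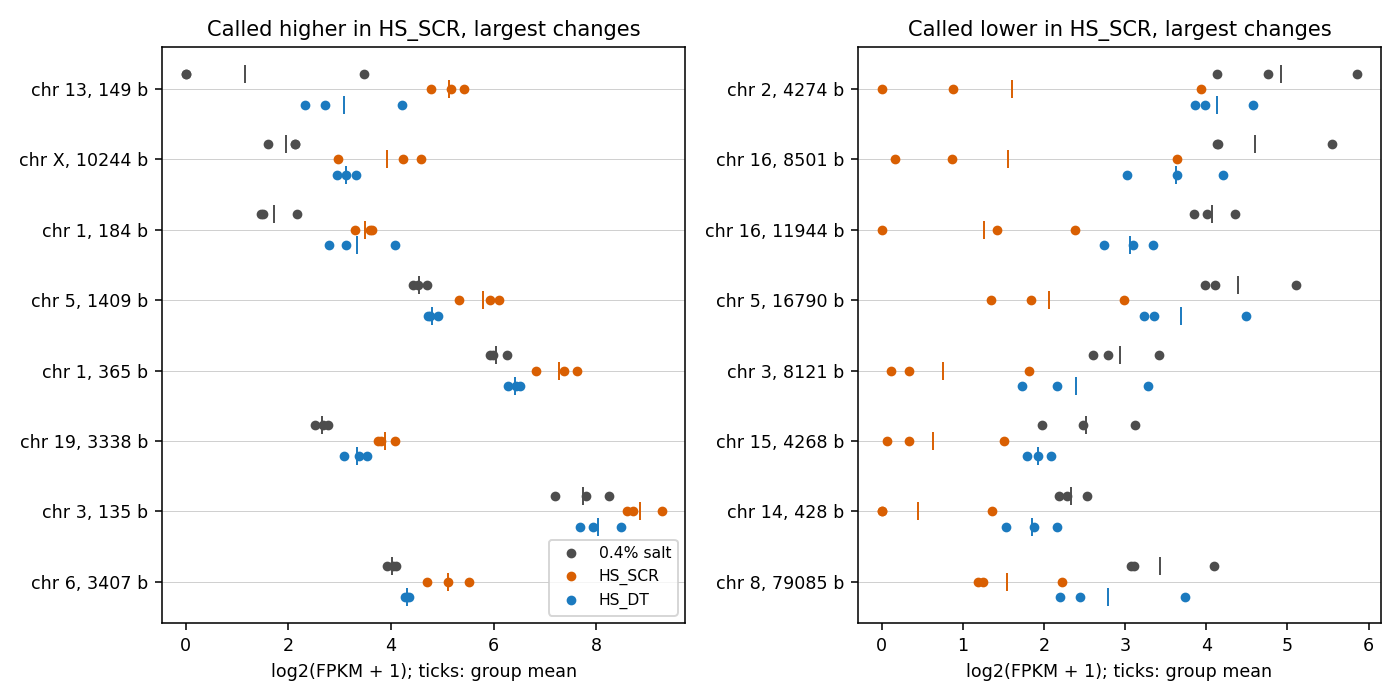
The 8 loci without a name called higher (left) and the 8 called lower (right) in HS_SCR that changed most from 0.4% salt, with log2(FPKM + 1) on the x axis and 1 row per locus, named by chromosome and width. Points are libraries (grey 0.4% salt, orange HS_SCR, blue HS_DT, n = 3 each) and ticks are group means. On the right, 1 orange point of each row (HS_SCR replicate 2) lies to the right of the other 2.

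Of these 16, 4 were called in every alternative that was run, and the same 4 were the ones called without each library in turn: those on chromosome 5 beside H6pd, on chromosome 1 beside Cib1, on chromosome 19 and on chromosome 6 beside Rab15. The other 12 were lost without 0.4% salt replicate 2. All of these 12 but chr1:2943184-2943367 and chr16:31120729-31132672 were also lost without at least 1 other library. Losses were most frequent at chr2:75933567-75937840 and chr16:32492655-32501155, which were called in 1 of the 9 such fits (adjusted p up to 0.159 and 0.160), and at chr3:134933702-134933836, called in 2 (adjusted p up to 0.152). With a factor for the rat number series 9 of the 16 were lost: 3 rises (on chromosomes 13 and X and at chr3:134933702-134933836) and 6 falls, which leaves the falls at chr16:31120729-31132672 and chr14:22788832-22789259. A fit of the 2 groups alone lost 11, among them all 8 falls, and no filter on low values lost 12. With 0.1 FPKM added in place of 1, the falls at chr2:75933567-75937840 and chr16:32492655-32501155 were lost, the first also with 0.5. Both hold HS_SCR levels at or near 0, where a change rests in part on the added value. The rise at chr3:134933702-134933836 was lost under median-ratio rescaling, quantile normalization and with the replicate number as a block.

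Markers of the proximal tubule also fell from 0.4% salt to HS_SCR. Of 12 listed markers 9 were tested and 7 fell, with a median change of -3.28. Their summed level was 585, 1667 and 738 FPKM in 0.4% salt, 48.0, 239 and 69.5 in HS_SCR rats and 215, 269 and 1065 in HS_DT rats, and none of those found was at 0 in every library. The highest library of each group was thus 0.4% salt replicate 2, HS_SCR replicate 2 and HS_DT replicate 3. The same 3 libraries were highest at 16 of the 70 loci that fell (22.9%), at 1 of the 55 that rose (1.82%) and at 61 of the 1206 not called (5.06%). For the erythroid markers, whose highest libraries were 0.4% salt replicate 2, HS_SCR replicate 1 and HS_DT replicate 2, the match held at 0 of the 55 rises, 1 of the 70 falls and 26 of the 1206 not called. For the macrophage markers (0.4% salt replicate 3, HS_SCR replicate 2 and HS_DT replicate 3) it held at 3, 2 and 32. The match was counted for these 3 lists only, and not for the thick ascending limb, where some markers also fell. Most of the 70 falls did not match the proximal tubule order. The part of the proximal tubule in the falls was not tested.

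Other cell type markers also moved between 0.4% salt and HS_SCR. Thick ascending limb markers fell at 4 of 8, with sums of 2559 to 4109 FPKM in 0.4% salt, 1085 to 2943 in HS_SCR and 2293 to 3198 in HS_DT. Macrophage markers rose at 5 of 7, with sums of 375 to 485, 988 to 1087 and 575 to 679 FPKM. Neutrophil markers rose at 2 of 3 and endothelial markers at 2 of 5. Of the podocyte markers tested, 1 rose and 1 fell, and none of 7 principal cell and 4 intercalated cell markers was called. None of the markers found was listed at 0 throughout, and their part in the changes of the unnamed loci was not tested.

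The changes of the loci without a name were only loosely those of the nearest named locus that passed the filter. Across loci, which are not independent replicates, and as a description only, the correlation of the 2 changes from 0.4% salt to HS_SCR was 0.18 (Pearson's r) for 240 loci in the interval of a named locus, 0.28 for 441 within 5000 bases, 0.07 for 325 at 5000 to 50000 bases and 0.12 for 325 farther away. Both changes come from the same libraries. The share with the same sign was 57.9%, 59.0%, 52.9% and 48.6% in these classes. Of 26 rises within 5000 bases of a named locus, 4 had a neighbour that rose too, and of 13 falls there, 3 had a neighbour that fell. In the interval of a named locus, this held for 1 of 6 rises and 2 of 13 falls. For comparison, 8.61% of all 13007 named loci tested rose and 4.84% fell. These few neighbours were not tested against those shares. A neighbour called in the opposite direction was seen for 3 loci in all: 1 within 5000 bases and 2 at 5000 to 50000 bases. The unnamed locus was the lower of the pair as a rule, with a median ratio of levels of 0.136 inside a named interval and 0.178 within 5000 bases.

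Between HS_SCR and the libraries labelled HS_DT, no locus without a name was called in either direction (limma, adjusted p under 0.05), against 0.0% of all loci tested for higher and 0.00697% for lower. At an unadjusted p under 0.05 there were 223 of the 1331, with 128 higher and 95 lower in HS_DT, and the lowest adjusted p was 0.0644. Over all 14338 loci tested there were 2732, with 1156 higher and 1576 lower, so the total alone says nothing particular of the unnamed loci. The split leaned to higher among the unnamed loci and to lower over all loci, a difference that was not tested. The FPKM ranges did not overlap, with HS_DT higher, at 125 loci (9.39%, against 9.1% of all loci tested), and with HS_DT lower at 96 (7.21%, against 12.5%). The median change was 0.04 and turned to -0.05 after quantile normalization. Without HS_SCR replicate 3, 99 loci were called higher and 61 lower, and without HS_SCR replicate 1, 6 and 11.

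The values with the smallest p in this comparison are given here although they did not pass. All 6 loci, 3 higher and 3 lower, were called with a factor for the rat number series and again without HS_SCR replicate 3, and some also in other alternatives, so the absence of a call depends on these choices. At chr14:5526678-5770287, an interval of 243610 bases shared by 4 loci, levels were 2.34, 1.29 and 1.61 FPKM in 0.4% salt, 0.352, 0.417 and 0.560 in HS_SCR rats and 3.23, 2.82 and 2.65 in HS_DT rats. HS_DT minus HS_SCR was 1.43 ± 0.16 (adjusted p = 0.0644). All HS_DT rats lay above all others there. At chr20:50934617-50934860 (244 bases, 16269 bases from the autophagy gene Atg5), levels were 10.5, 7.00 and 9.17, then 4.75, 5.08 and 5.01, then 9.53, 10.6 and 9.16 FPKM, and HS_DT minus HS_SCR was 0.85 ± 0.13 (adjusted p = 0.0644). At chr6:6278389-6287430 (9042 bases) the same difference was 0.67 ± 0.12 (adjusted p = 0.0644), with 0.740 to 0.961 FPKM in HS_SCR and 1.69 to 2.05 in HS_DT.

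In the other direction, chr20:15809233-15809644 (412 bases) was tight within groups, at 65.8, 58.7 and 67.5 FPKM in 0.4% salt, 113, 113 and 115 in HS_SCR rats and 80.1, 76.5 and 73.1 in HS_DT rats. The 3 groups did not overlap. Its rise from 0.4% salt to HS_SCR, 0.82 ± 0.08, had the lowest adjusted p of the set (0.00564, and 0.00146 to 0.0436 over the alternatives), and HS_DT minus HS_SCR was -0.57 ± 0.08 (adjusted p = 0.0644). At chr10:13903213-13903762 (550 bases), 125 bases from the ribosomal protein gene Rps2, levels were 41.3, 36.5 and 34.2 FPKM, then 61.9, 76.6 and 80.9, then 42.7, 41.0 and 40.4. It rose by 0.95 ± 0.11 from 0.4% salt to HS_SCR (adjusted p = 0.00566), Rps2 rose by 0.65 ± 0.10 (adjusted p = 0.00766), and HS_DT minus HS_SCR was -0.80 ± 0.11 at the locus (adjusted p = 0.0644). The locus at chr2:247015091-247076503, in the interval of the serine protease gene Prss12, was at 37.9 to 42.3, 54.2 to 60.6 and 40.1 to 42.6 FPKM in the 3 groups. It rose by 0.50 ± 0.08 in HS_SCR (adjusted p = 0.00894), HS_DT minus HS_SCR was -0.43 ± 0.08 (adjusted p = 0.0644), and Prss12 itself changed by -0.18 ± 0.31 (adjusted p = 0.723).

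Between 0.4% salt and the libraries labelled HS_DT, again no locus without a name was called (limma), against 0.0% of all loci tested in each direction. At an unadjusted p under 0.05 there were 74 of the 1331, with 47 higher and 27 lower, and the lowest adjusted p was 0.299. Over all 14338 loci tested there were 1074, with 745 higher and 329 lower. The FPKM ranges did not overlap, with HS_DT higher, at 111 loci (8.34%, against 14.2% of all loci tested), and with HS_DT lower at 93 (6.99%, against 9.64%). The median change was -0.01. With the smallest p were the loci of 184 bases on chromosome 1 and 3338 bases on chromosome 19 described above (1.62 ± 0.32 and 0.67 ± 0.14) and chr11:1508886-1509320 (435 bases). The last was at 0.940, 1.01 and 1.12 FPKM in 0.4% salt, 2.44, 3.21 and 2.81 in HS_SCR rats and 2.53, 2.47 and 1.77 in HS_DT rats, with HS_DT minus 0.4% salt at 0.68 ± 0.14 (adjusted p = 0.299). Both groups on high salt lay above all 0.4% salt rats at that locus, and HS_SCR minus 0.4% salt was called there (0.91 ± 0.14, adjusted p = 0.00778).

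Lower values in HS_DT with the smallest p did not pass either. At chr4:17879189-17879537 (349 bases) levels were 8.98, 8.76 and 9.47 FPKM in 0.4% salt, 5.70, 6.62 and 8.46 in HS_SCR rats and 6.29, 5.93 and 5.62 in HS_DT rats, with a difference of -0.54 ± 0.13 (adjusted p = 0.355). At chr2:77492132-77509677 (17546 bases, 25287 bases from the mitochondrial NAD kinase gene Nadk2) they were 19.0, 23.0 and 14.5, then 9.06, 6.50 and 4.52, then 9.60, 8.84 and 5.11 FPKM, with a difference of -1.18 ± 0.28 (adjusted p = 0.355). Both treated groups were below 0.4% salt at this locus, and HS_SCR minus 0.4% salt was called (-1.39 ± 0.28, adjusted p = 0.0184, limma). That call was lost without 0.4% salt replicate 1, 0.4% salt replicate 2 or HS_SCR replicate 2, and with no filter on low values (adjusted p up to 0.0817). The third, chr4:134234907-134235393 (487 bases), was at 1.84 to 2.69 FPKM in 0.4% salt and at 0.822, 1.07 and 0 in HS_DT (-1.08 ± 0.28, adjusted p = 0.395). Its group means were 2.32 FPKM in 0.4% salt, 1.10 in HS_SCR and 0.630 in HS_DT. It passed the filter through its level in 0.4% salt, so a lower value in HS_DT was in part built into its choice.

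Over the 3 groups at once, the moderated F test called 44 loci without a name (3.31%, against 5.61% of all loci tested), and 42 of these were also called between 0.4% salt and HS_SCR. HS_SCR had the highest group mean at 23 of the 44 and the lowest at 21, and HS_DT lay between the other 2 at 38. Among the loci called between 0.4% salt and HS_SCR, the HS_DT mean lay between the other 2 at all 55 that rose and at 65 of the 70 that fell. These loci were chosen for a difference between 0.4% salt and HS_SCR, and the comparisons share those libraries, so a position between the 2 is no separate result. For the 55, the median of HS_DT minus 0.4% salt was 0.28 and that of HS_DT minus HS_SCR was -0.49, and for the 70 they were -0.29 and 0.57. The F count was 0 without 0.4% salt replicate 1, without replicate 2 or without HS_DT replicate 2, 10 without 0.4% salt replicate 3, 1 without HS_SCR replicate 2, 14 without HS_DT replicate 1, 22 without HS_DT replicate 3 and 256 without HS_SCR replicate 3.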

How the data were processed

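Outer medulla RNA of 9 rats was sequenced. Trizol extraction and library preparation on an Illumina NeoPrep are given per the labels' protocols. The deposited values are FPKM per locus, computed by the authors on build rn5. Per the submitters' processing notes, tools included Trim Galore 0.2.5 and Cufflinks 2.2.1. Aligner, annotation, fragment totals and scaling across libraries: not given in the sources used here. Depth is thus unknown. The labels do not say whether library preparation separated strands. Columns were matched to rats by the number in the titles. In the table, 1 further column of values repeats a library and was not used. Starts are counted from 0 in the table and were raised by 1.

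Values were tested as log2(FPKM + 1) at the 14338 loci averaging 1 FPKM or more, with limma 3.58.1 (R 4.3.3, variance trend on level), all 9 libraries in 1 fit with 6 residual degrees of freedom (8.54 after moderation), two-sided, with Benjamini-Hochberg adjustment over all loci tested and calls at an adjusted p under 0.05. The procedure was tested on simulated data. Replicates are separate rats.

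Named loci follow a rule: the 12 highest, up to 8 called per comparison and direction with ranges that do not overlap (filled to 3 by smallest p), the 3 nearest the filter on each side, the 3 widest and 3 narrowest, the longest run, and the nearest named locus of each. The lists held markers of proximal tubule, thick ascending limb, principal and intercalated cells, macrophages, neutrophils, erythroid cells, endothelium and podocytes. The loci, lists and tests were chosen with earlier results of these data known. Alternatives were pseudocounts of 0.1 and 0.5, no filter and a minimum of 5 FPKM, median-ratio rescaling, quantile normalization, a fit of 2 groups, a replicate block, the rat number series, robust moderation and leaving out each library. Leaving out loci under 200 bases and loci with a shared interval was added after seeing the data. No sequence is given, since no genome of build rn5 was used here.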

Additional observations from a re-analysis of the deposited data

How the results depend on the processing

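Counts of the loci without a name that were called between 0.4% salt and HS_SCR (55 higher, 70 lower) stayed within 1.5 times with pseudocounts of 0.1 and 0.5, median-ratio rescaling, robust moderation and the rat number series as a factor. They became 18 and 14 with no filter (adjustment then runs over all loci), 35 and 26 with a minimum of 5 FPKM (which drops loci), 71 and 39 with quantile normalization, and 15 and 9 in a fit of the 2 groups only. Leaving out 1 library gave 12 to 155 higher and 6 to 212 lower. Between HS_SCR and HS_DT (0 and 0), the counts were 2 and 1 with no filter, 1 and 4 with the minimum of 5 FPKM, 11 and 11 with the rat number series, and 0 to 99 higher and 0 to 61 lower with 1 library left out. The F test (44) gave 10 with no filter and 0 to 256 with 1 library left out. No locus was called between 0.4% salt and HS_DT under any alternative. Of the 125 calls, none changed sign. Without loci under 200 bases the counts were 47, 69 and 42 (F test), and without loci that share an interval 47, 55 and 38. The causes of these changes were not tested, and the remarks in brackets only describe the settings. HS_SCR replicate 3 and HS_DT replicate 3 have rat numbers in the series of the 0.4% salt rats, and the other high-salt rats do not. With the series as a factor, 41 were called higher and 50 lower, of which 25 and 27 were among the 55 and 70.

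No label says that equal replicate numbers pair rats. Across loci, residuals correlated above 0.1 in 5 of the 9 pairs of equal number (-0.08 to 0.26, against -0.31 to 0.24 for other pairs). With the number as a block, 64 were called higher and 87 lower between 0.4% salt and HS_SCR, 0 and 0 between HS_SCR and HS_DT, 0 and 0 between 0.4% salt and HS_DT, and 41 by the F test.

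Depth is unknown, so no counting error is given. At widths near 135 bases a single step is 7.53 to 12.3 FPKM, which limits the precision of levels there.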
